A study of Mus musculus with 46 samples.

Results

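The 10 genes described here belong to the bone morphogenetic protein (BMP) and transforming growth factor beta (TGF-beta) pathway. They were chosen by symbol from the 29871 genes of the deposited expression table: the ligands Bmp3, Bmp4, Tgfb1 and Tgfb2, the antagonists and co-receptor Bambi, Fst and Tgfbr3, and the target genes Id1, Id2 and Id3. The cells were 46 single fluorescent cells of the mouse cochlea (strain C57BL/6, postnatal day 10, genotype Dio2creERt2:Ai6), each sequenced as a full-length polyA cDNA library. All 46 carried a tamoxifen-inducible Cre at 1 allele of Dio2, the gene of the enzyme that activates thyroid hormone, together with Ai6, a reporter that stays on in a cell where Cre has acted and in the cells that descend from it. Fluorescence therefore marks a history of Cre activity and not the present level of Dio2, and no cell without fluorescence was set beside them. The cochleae were dissociated with papain and the cells were taken by suction pipette, so counts of cells speak of the cells picked and not of the whole tissue.

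BMP and TGF-beta ligands are secreted dimers that bind pairs of serine/threonine kinase receptors. The receptors phosphorylate Smad proteins, which enter the nucleus and switch target genes on or off, among them the Id genes in the BMP branch. Antagonists outside the cell and decoy receptors at its surface limit how much ligand is seen. In bone the pathway governs osteoblast differentiation and matrix production, and in the inner ear BMP signals take part in patterning and in the shaping of the bony capsule.

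The cells were placed by 3 marker genes. Ibsp, the bone sialoprotein of osteoblasts, was at 1000 CPM (reads per 1000000 reads) or more in 12 cells, called Ibsp-high. Otos, the otospiralin of cochlear fibrocytes, was at 1000 CPM or more in 9 cells, called Otos-high, and C1qb, a complement gene of macrophages, was at 500 CPM or more in 4 cells, called C1qb-high. The remaining 21 cells are called the rest, and 0 cells met several limits. The limits lay far from the values on either side, with 2 exceptions. The lowest Otos-high cell was not far above its limit, and cell 22 of the rest was within 5 times of the C1qb limit. Ibsp was 7618 CPM in the lowest cell inside its limit and 107 CPM in the highest outside it. Otos was 1213 CPM inside and 112 CPM outside, and C1qb was 3048 CPM inside and 148 CPM outside, in cell 22. Class limits 5 times lower moved 1 cell and gave 5 C1qb-high cells.

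Other markers of the same cell types went with these classes. All 10 osteoblast markers were detected in at least 50% of the Ibsp-high cells, all 8 fibrocyte markers in at least 50% of the Otos-high cells, and all 7 macrophage markers in at least 50% of the C1qb-high cells. Here and below a gene is called detected at 10 CPM or more and at 1% or more of its mean over the 46 cells. At the same share, 3 of 4 general fibroblast markers were detected in Ibsp-high cells, 4 in Otos-high cells, 0 in C1qb-high cells and 3 in the rest. Of the 5 chondrocyte markers, 1, 3, 0 and 2 were so detected in these classes, and 4 of the 8 fibrocyte markers were in Ibsp-high cells and in the rest. The fibrocyte markers Otor, Gjb2 and Gjb6 were detected in 10, 9 and 8 of 21 cells of the rest. In Ibsp-high cells they were detected in 1, 2 and 0 of 12. Comparisons against the rest are thus not against cells free of fibrocyte markers. In the rest Ibsp was detected in 0 cells and the osteoblast marker Dmp1, which encodes a bone matrix protein, in 13 of 21. In the rest 5 cells, cells 20, 21, 22, 38 and 42, held between 4 and 6 of the 10 osteoblast markers. Of these, cell 22 also held 2 of the 7 macrophage markers and cell 42 held 1. The 4 glial markers summed to between 0.978 and 3700 CPM in Ibsp-high cells, 0.551 and 1382 CPM in Otos-high cells, 53.7 and 10584 CPM in C1qb-high cells, and 1.13 and 5736 CPM in the rest. Sox10, the defining glial transcription factor among them, was detected in 1 cell, an Otos-high cell at 37.6 CPM. Their part in the results below was not tested.

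Reads in listed genes numbered 2522853 in the shallowest cell, 4789573 at the median and 10350249 in the deepest. The cell numbers follow the classes: cells 1 to 12 were Ibsp-high, cells 23 to 29, 31 and 32 were Otos-high, cells 43 to 46 were C1qb-high, and cells 13 to 22, 30 and 33 to 42 were the rest. Whatever else ran with this numbering cannot be told apart from the class. The cells are 1 labelled group with no animal named, so they count as 1 sample and no difference between classes was tested. Intervals of shares are exact Clopper-Pearson 95% intervals, which cover counting error only, and SDs are over cells.

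The target genes Id2 and Id3 were detected in 44 and 41 of the 46 cells, the pseudoreceptor Bambi in 33 and Id1 in 22. The ligands and the other antagonist genes were found in fewer cells: Bmp4 in 17, Tgfb1 and Tgfbr3 in 15 each, Tgfb2 in 13, Fst in 12 and Bmp3 in 5. A cell held between 3 and 6 of the 10 genes in the Ibsp-high class (median 5), between 3 and 7 in the Otos-high class (median 4), between 0 and 3 in the C1qb-high class (median 1.5), and between 2 and 7 in the rest (median 5). Per kilobase of annotated exon, which allows genes to be compared, the median level over the 46 cells was 642 CPM for Id3, 360 CPM for Id2, 26.5 CPM for Bambi and 1.28 CPM for Id1.

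**Figure D1:**
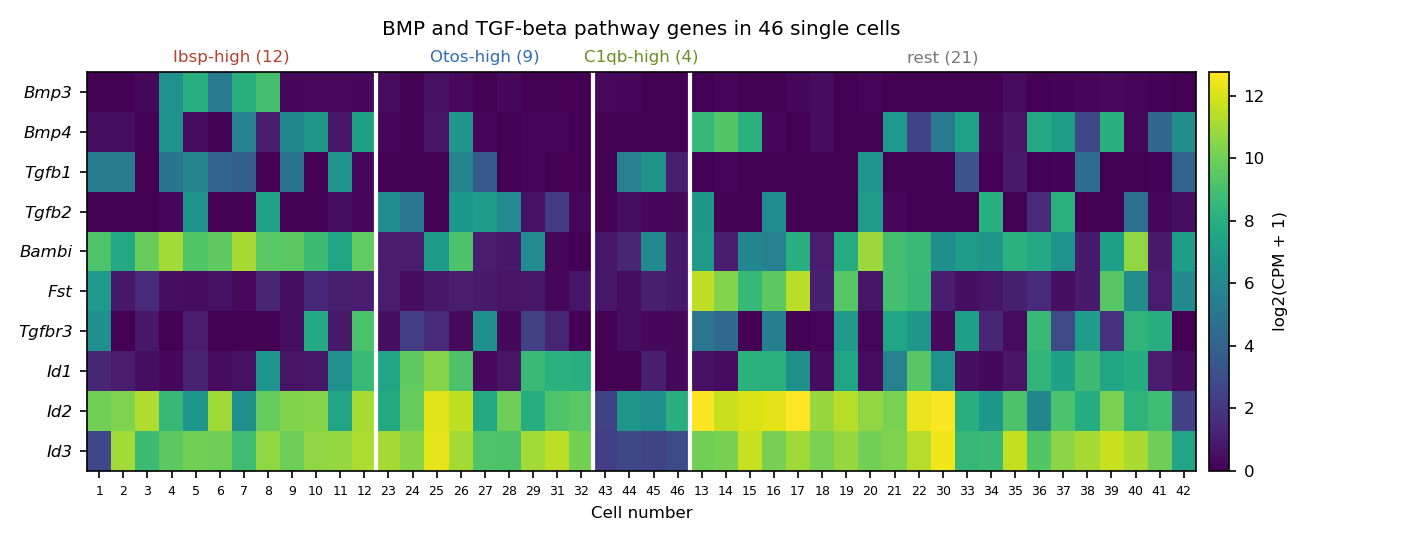
Level of each of the 10 genes (rows) in each of the 46 cells (columns, by class and then by cell number) as log2(CPM + 1), dark for 0 and yellow for the highest. Id2 and Id3 are bright in most cells outside the C1qb-high class, Bambi is bright in all 12 Ibsp-high cells, Bmp3 in cells 4 to 8, and Fst in 11 cells of the rest.

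Among the ligands, Bmp3 was found in the Ibsp-high class alone. Bmp3 encodes a BMP family member that opposes the bone-forming BMPs, and bone matrix is a classical source of it. In Ibsp-high cells it ran from 0 to 513 CPM with a median of 0.238 CPM. It was detected in 5 of these 12 cells (41.7%, interval 15.2% to 72.3%), at 86.7 CPM in cell 4, 269 CPM in cell 5, 36.8 CPM in cell 6, 258 CPM in cell 7 and 513 CPM in cell 8. The 5 cells carry neighbouring numbers, and the other Ibsp-high cells were at or below 0.245 CPM. Outside the class it was detected in 0 of 34 cells (interval 0% to 10.3%), with a highest value of 0.463 CPM in an Otos-high cell.

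Bmp4 encodes a ligand that induces bone and cartilage and activates the BMP branch of Smads. It was detected in 5 of 12 Ibsp-high cells (41.7%, interval 15.2% to 72.3%), 1 of 9 Otos-high cells, 0 of 4 C1qb-high cells and 11 of 21 cells of the rest (52.4%, 29.8% to 74.3%). In the Ibsp-high cells it reached 154 CPM, with a median of 0.831 CPM. The Otos-high exception was cell 26 at 100.1 CPM, and all 4 C1qb-high cells were at 0 CPM. In the rest the median was 17.5 CPM and the highest values were 644 CPM in cell 14, 366 CPM in cell 13 and 285 CPM in cell 15. The Ibsp-high, Otos-high and rest ranges overlapped, because each held cells at or near 0 CPM. On the log2(CPM + 1) scale Bmp4 averaged 2.95 ± 3.13 in Ibsp-high cells (SD, n = 12), 0.91 ± 2.17 in Otos-high cells (SD, n = 9) and 4.10 ± 3.54 in the rest (SD, n = 21). Between the first and the last of these the difference of -1.16 was smaller than the SD over cells.

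Tgfb1 encodes the TGF-beta form that is stored in bone matrix and made by many blood cells. It was low throughout, at 102 CPM or less in every cell. Detection was seen in 8 of 12 Ibsp-high cells (66.7%, interval 34.9% to 90.1%), 2 of 9 Otos-high cells, 2 of 4 C1qb-high cells and 3 of 21 cells of the rest (14.3%, 3.05% to 36.3%). The Ibsp-high values ran from 0 to 99.0 CPM with a median of 22.3 CPM. The C1qb-high cells 43 to 46 had 0, 45.9, 91.9 and 1.08 CPM. All 3 cells of the rest that held Tgfb1, cell 20 at 102 CPM, cell 38 at 22.4 CPM and cell 42 at 16.3 CPM, were among the 5 that held between 4 and 6 of the 10 osteoblast markers. Other cells of the rest held fewer of these markers, among them Dmp1. Cell 33, outside these 5, had Tgfb1 at 9.47 CPM (41 reads), just below the limit of detection of 10 CPM.

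Tgfb2 encodes the TGF-beta form whose loss disturbs inner ear and skull development in mice. Its order over the classes was another one. Cells with Tgfb2 numbered 2 of 12 Ibsp-high cells (16.7%, interval 2.09% to 48.4%), 5 of 9 Otos-high cells (55.6%, 21.2% to 86.3%), 0 of 4 C1qb-high cells and 6 of 21 cells of the rest (28.6%, 11.3% to 52.2%). The Otos-high values ran from 0 to 134 CPM with a median of 32.9 CPM. The highest values of all were in the rest, 287 CPM in cell 37 and 277 CPM in cell 34, although the median there was 0 CPM.

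Bmp4 was detected most often in the rest (52.4%), though the share in Ibsp-high cells was not far below (41.7%) and the intervals overlapped. Tgfb1 was detected most often in Ibsp-high cells. Whether promoter sequence bears on these shares was not tested. The promoter sequences of these ligands are shown. Each is the stretch of 250 bases directly before the annotated start (RefSeq, GRCm38.p6), 5′ to 3′ along the gene's strand. Bmp4 lies at chr14:46383525-46390669 on the minus strand, with the stretch at chr14:46390670-46390919. Tgfb1 lies at chr7:25687002-25705077 on the plus strand, with the stretch at chr7:25686752-25687001. Capitals would mark GGCGCC, the GC-rich element that Smads of the BMP branch bind, and neither stretch holds it.
Bmp4: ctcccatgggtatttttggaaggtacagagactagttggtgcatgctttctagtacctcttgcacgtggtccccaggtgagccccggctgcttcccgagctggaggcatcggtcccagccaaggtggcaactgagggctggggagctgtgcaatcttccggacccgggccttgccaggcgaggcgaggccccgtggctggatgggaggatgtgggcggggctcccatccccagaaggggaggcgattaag
Tgfb1: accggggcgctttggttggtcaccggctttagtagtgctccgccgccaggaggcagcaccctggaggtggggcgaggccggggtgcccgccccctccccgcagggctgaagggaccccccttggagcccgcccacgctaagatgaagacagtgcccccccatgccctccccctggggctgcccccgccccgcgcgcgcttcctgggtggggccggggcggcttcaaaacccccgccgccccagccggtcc

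Bambi, which encodes a transmembrane pseudoreceptor that lacks the kinase domain and dampens BMP and TGF-beta signals, was detected in all 12 Ibsp-high cells (interval 73.5% to 100%). It ran from 187 to 2178 CPM there, with a median of 744 CPM. It was detected in 3 of 9 Otos-high cells (33.3%, 7.49% to 70.1%), where the median was 0.992 CPM and cell 26 had 587 CPM. The C1qb-high cells 43 to 46 had 0.698, 1.55, 69.1 and 0.864 CPM. In the rest it was detected in 17 of 21 cells (81.0%, 58.1% to 94.6%), from 0.867 to 1837 CPM with a median of 134 CPM. The order of medians was thus Ibsp-high, rest, C1qb-high and Otos-high, with the last pair close together near 1 CPM. The Ibsp-high range lay above all 4 C1qb-high cells and overlapped the Otos-high class and the rest, in which cells 20 and 40 reached 1837 and 1612 CPM.

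The mean of Bambi on the log2(CPM + 1) scale was 9.40 ± 1.07 in Ibsp-high cells (SD, n = 12), against 2.93 ± 3.49 in Otos-high cells (SD, n = 9) and 6.39 ± 3.01 in the rest (SD, n = 21). The difference between Ibsp-high and Otos-high cells, 6.47, was larger than the pooled SD over cells of 2.41. Between Ibsp-high cells and the rest it was 3.01, with a pooled SD of 2.50. A near-identical pseudogene copy, Bambi-ps1, had reads amounting to between 1.80% and 3.76% of those of Bambi in the 27 cells with at least 100 CPM of Bambi. The split of reads between the copies is uncertain.

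Fst encodes follistatin, a secreted protein that traps activins and some BMPs. Its expression sat almost wholly in the rest. It was detected in 1 of 12 Ibsp-high cells (8.33%, interval 0.211% to 38.5%), 0 of 9 Otos-high cells (0% to 33.6%), 0 of 4 C1qb-high cells (0% to 60.2%) and 11 of 21 cells of the rest (52.4%, 29.8% to 74.3%). The single Ibsp-high cell was cell 1 at 114 CPM. The other Ibsp-high cells were at or below 1.99 CPM, the Otos-high cells at or below 1.05 CPM and the C1qb-high cells at or below 1.21 CPM. Within the rest Fst had a wide range, from 0.451 to 3045 CPM with a median of 67.6 CPM. It was highest in cell 13 at 3045 CPM, cell 17 at 2812 CPM and cell 14 at 1350 CPM, and 8 of the 11 cells that held it had numbers between 13 and 22.

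Tgfbr3 encodes betaglycan, a co-receptor that presents TGF-beta, above all the second form, to the signalling receptors. It was detected in 3 of 12 Ibsp-high cells (25%, interval 5.49% to 57.2%), 1 of 9 Otos-high cells, 0 of 4 C1qb-high cells and 11 of 21 cells of the rest (52.4%, 29.8% to 74.3%). The highest value of all cells was 576 CPM in Ibsp-high cell 12, while the median of that class was 0.593 CPM. In the rest Tgfbr3 ran from 0 to 399 CPM with a median of 20.5 CPM. Fst and Tgfbr3 were detected together in 8 cells, 1 of them Ibsp-high and 7 in the rest, and Tgfb2 and Tgfbr3 in 4 cells, 1 of them Otos-high and 3 in the rest.

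**Figure D2:**
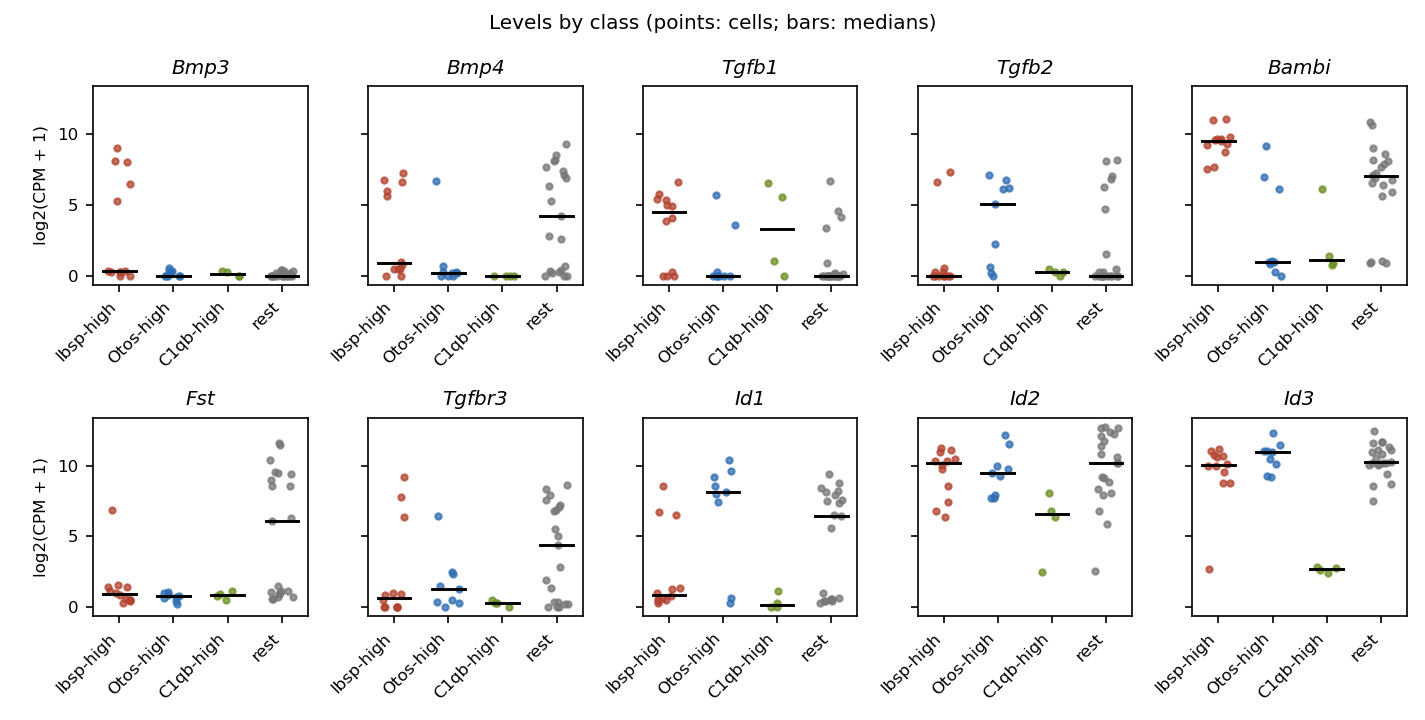
Level of each gene in each cell as log2(CPM + 1), by class from left to right (12 Ibsp-high, 9 Otos-high and 4 C1qb-high cells and 21 cells of the rest); points are cells and bars are medians. Most genes split into cells near 0 and cells well above it within a class, whereas Bambi in Ibsp-high cells (187 to 2178 CPM) and Id3 in Otos-high cells (581 to 5109 CPM) do not.

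The Id genes encode inhibitors of basic helix-loop-helix transcription factors that hold back differentiation, and Id1 and Id3 are classical direct targets of the BMP branch. Id1 was detected in 3 of 12 Ibsp-high cells (25%, interval 5.49% to 57.2%), 7 of 9 Otos-high cells (77.8%, 39.99% to 97.2%), 0 of 4 C1qb-high cells and 12 of 21 cells of the rest (57.1%, 34.02% to 78.2%). The 3 Ibsp-high cells were cell 8 at 102 CPM, cell 11 at 88.6 CPM and cell 12 at 385 CPM, and the class median was 0.855 CPM. Otos-high values ran from 0.248 to 1378 CPM with a median of 285 CPM. The C1qb-high cells were at or below 1.21 CPM, and the rest ran from 0.225 to 692 CPM with a median of 85.1 CPM.

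Id3 was found in nearly every cell outside the C1qb-high class. It ran from 5.55 to 2325 CPM in Ibsp-high cells (median 1051 CPM), from 581 to 5109 CPM in Otos-high cells (median 2044 CPM) and from 176 to 5679 CPM in the rest (median 1255 CPM). The C1qb-high cells 43 to 46 had 4.19, 5.81, 5.05 and 6.26 CPM, so all 4 lay below every cell of the Otos-high class and the rest. Cell 1, an Ibsp-high cell at 5.55 CPM, was the only other cell in which Id3 was not detected. On the log2(CPM + 1) scale Id3 averaged 2.65 ± 0.21 in C1qb-high cells (SD, n = 4) and 10.40 ± 1.18 in the rest (SD, n = 21). This was a difference of -7.75, with a pooled SD over cells of 1.11.

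Id2 differed little between the Ibsp-high class, the Otos-high class and the rest. It ran from 82.7 to 2445 CPM in Ibsp-high cells (median 1155 CPM), from 214 to 4532 CPM in Otos-high cells (median 728 CPM) and from 4.76 to 6987 CPM in the rest (median 1191 CPM). The C1qb-high cells had 4.65, 108, 82.6 and 267 CPM, below the median of each other class. Within the rest, cells 13 to 22 and 30 had between 1191 and 6987 CPM, and cells 33 to 42 had between 4.76 and 1157 CPM. Of the target genes, the promoter windows of Id2 and Id3 were searched and that of Id1 was not. The Id2 window held the GC-rich element, so a stretch of it is shown. The gene lies at chr12:25093799-25096092 on the minus strand (GRCm38.p6, RefSeq), and the stretch is chr12:25096254-25096342, the part of the 250 bases before the start that lies outside annotated exons. Capitals mark GGCGCC, which begins 231 bases before the start.
Id2: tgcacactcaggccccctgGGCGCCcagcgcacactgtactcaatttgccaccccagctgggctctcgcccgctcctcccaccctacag

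RefSeq promoters of 5 of these genes were searched (Tgfb1, Tgfb2, Bmp4, Id2 and Id3), and those of the other genes, Bambi among them, were not. GGCGCC, which reads the same on both strands, was in 1 of the 5 and in 9.59% of all 32851 promoter windows of 250 bases. GTCTAGAC, a palindrome bound by Smads, was in 0 of 5 and in 0.167% of all windows. CAGACA or its reverse complement TGTCTG, which holds the short Smad-binding box, was in 1 of 5 (Tgfb2) and in 17.1% of all windows. All 250 bases of the Id3 window lay in annotated exons, as did 167 of the Tgfb2 window and 161 of the Id2 window. The matches describe letters in a window and not binding.

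Id1 and Id3 were the pair of genes with the most alike pattern. All 22 cells that held Id1 also held Id3, and 19 more cells held Id3 without Id1. Spearman's rho of their CPM over the 46 cells was 0.71, and it was 0.67 over the 42 cells outside the C1qb-high class. Id2 and Id3 had a rho of 0.49 and 0.37 over the same cells, Fst and Id2 of 0.45 and 0.47, and Bambi and Bmp3 of 0.40 and 0.44. Bmp3 was detected in 5 of the 46 cells and was at or below 0.463 CPM in the others, so its rho mostly ranks values near 0. Bmp4, Tgfb1, Fst and Id1, detected in 17, 15, 12 and 22 cells, also had many values near 0, which their rhos rank. Bambi and Tgfb1 had a rho of 0.27 and 0.35, and 12 cells held both. Bambi and Fst had a rho of 0.09 and 0.02, and 10 cells of the rest held both. Bmp4 and Id1 were detected together in 8 cells, Bmp4 without Id1 in 9 and Id1 without Bmp4 in 14, with a rho of 0.18. Tgfb1 had a rho of -0.37 to Fst and -0.30 to Id1 over the 46 cells. These values describe the cells of 1 sample and carry no test.

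**Figure D3:**
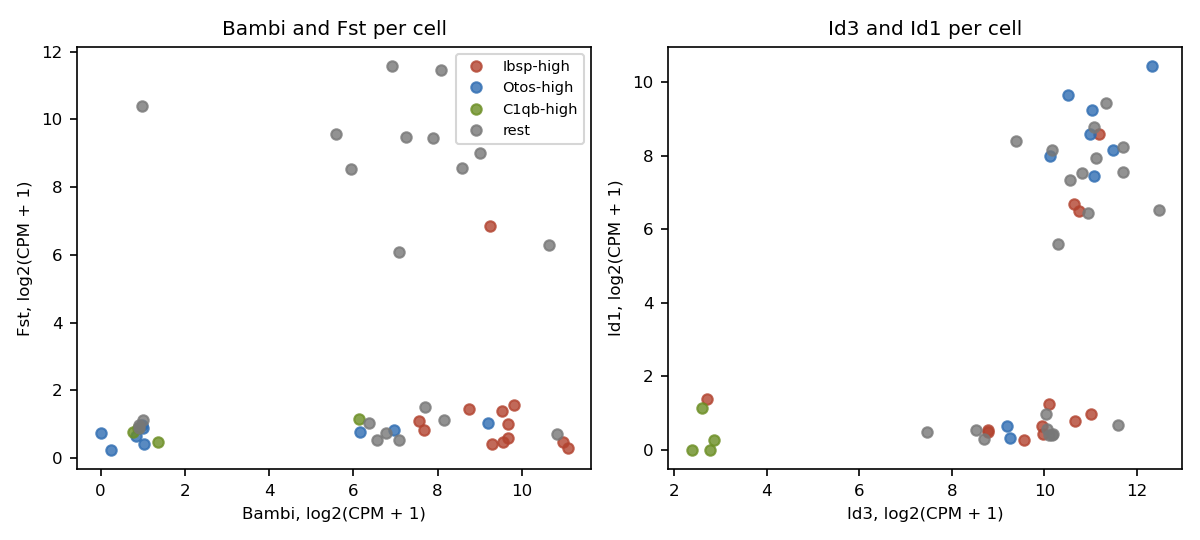
Left, Fst against Bambi, and right, Id1 against Id3, in each of the 46 cells as log2(CPM + 1), with colours for the 4 classes. Cells with Fst belong to the rest, apart from 1 Ibsp-high cell, and 10 of those in the rest also held Bambi, while cell 14 did not. Every cell with Id1 lies on the right among cells with Id3.

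Over all genes that entered the comparisons, those most alike to a member by rho over the 46 cells were few. Tcf4 had a rho of 0.64 with Tgfb1, and Larp4b 0.62 with Tgfb2. Pate2 had 0.66 with Tgfb1 but was itself detected in 0 cells. Apart from its near-identical copy at 0.96, Bambi was most like Wisp1 (0.72) and Smpd3 (0.71). Fst was most like Phactr1 (0.62), Eya2 (0.61) and Rnd3 (0.60), Tgfbr3 most like Col4a4 (0.68), and Id2 most like Col2a1 (0.63) and Kazald1 (0.62). No gene reached 0.6 with Bmp4. Tgfb1, Tgfb2, Fst and Tgfbr3 were detected in 15, 13, 12 and 15 of the 46 cells, so their rhos rank many values near 0. Dio2 itself, whose Cre marked the cells, had a rho between -0.08 (Tgfb1) and 0.31 (Bambi) with the 10 genes.

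The classes were then compared over all genes. Genes at 1 CPM or more in at least 5 cells entered, 11447 in all and with them all 10 genes described here. A gene is counted as higher or lower where the means of log2(CPM + 1) differed by at least 2 and the gene was at 1 CPM or more in at least 50% of the cells of the higher class. In Ibsp-high cells against the rest, 2 of the 10 were higher, against 5.62% of all genes entered. These were Tgfb1, by 2.48, and Bambi, by 3.01. With a pseudocount of 10 in place of 1, Tgfb1 differed by 1.08 and was not counted. The 2 of 10 that were lower, against 3.35% of all genes, were Fst, by -3.85, and Id1, by -2.22. Bmp3 differed by 3.06 but was not counted, because it was at 1 CPM or more in 5 of 12 cells. Id1 was not counted without cell 22, when the difference was -1.98, or with a pseudocount of 10, when it was -1.47. Tgfbr3, with a difference of -1.72, was counted as lower without cell 1, 10 or 12, when the difference lay between -2.35 and -2.09.

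In Otos-high cells against the rest, 1 of the 10 genes was higher, against 5.21% of all genes, and 4 were lower, against 2.82%. The higher gene was Id1, by 2.34 on the log2(CPM + 1) scale, with a pooled SD of 3.72. It was not counted without cell 25, when the difference was 1.90. The lower genes were Fst by -4.49, Bambi by -3.46, Bmp4 by -3.19 and Tgfbr3 by -2.25. With a pseudocount of 10, Id1 (1.74), Bmp4 (-1.76) and Tgfbr3 (-1.46) were not counted. Tgfb2 differed by 1.74, and it was counted as higher without cell 25, 29, 32, 34 or 37, when the difference lay between 2.04 and 2.22. Id2 and Id3 differed by -0.32 and 0.26, less than their SD over cells.

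In C1qb-high cells against the rest, 7 of the 10 genes were lower, against 10.1% of all genes, and 1 was higher, against 13.3%. The lower genes were Id3 by -7.75, Fst by -4.40, Id1 by -4.24, Bambi by -4.11, Bmp4 by -4.10, Id2 by -3.90 and Tgfbr3 by -3.68 on the log2(CPM + 1) scale. The higher gene was Tgfb1 by 2.33, and it was not counted without cell 44 (1.57), without cell 45 (1.25) or with a pseudocount of 10 (1.13). Tgfbr3 was not counted with that pseudocount either (-1.97). The class has 4 cells, and the median difference of all genes entered was -0.36 in this comparison.

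Between Ibsp-high and Otos-high cells directly, 2 of the 10 genes were higher, against 8.36% of all genes, and 2 were lower, against 7.43%. Bambi was higher by 6.47 and Tgfb1 by 2.38 on the log2(CPM + 1) scale, and Id1 was lower by -4.56 and Tgfb2 by -2.56. With a pseudocount of 10, Tgfb1 (1.04) and Tgfb2 (-1.15) were not counted. Bmp3 (3.02) and Bmp4 (2.04) also differed by more than 2 and were not counted, both being at 1 CPM or more in 5 of 12 Ibsp-high cells. Id2 differed by -0.06 between these classes. The comparisons against the rest share the same 21 cells. The 10 genes were chosen with earlier results of these cells known, so the shares counted are a description.

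**Figure D4:**
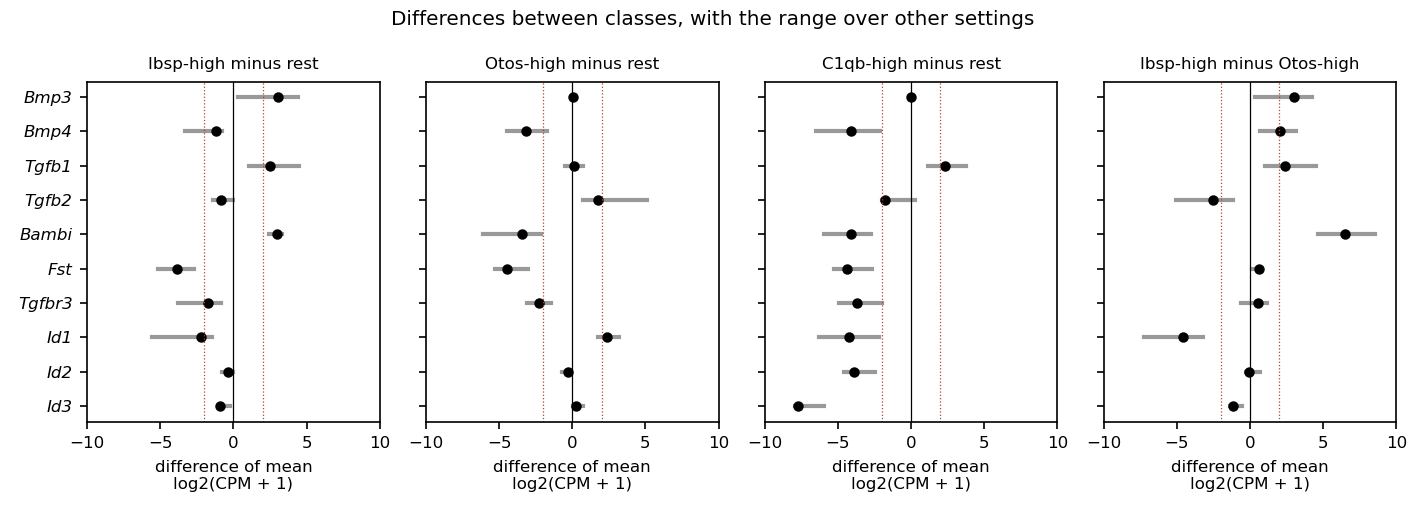
Difference of mean log2(CPM + 1) for each gene in the 4 comparisons; points are the values reported, grey bars span the values under the other settings and with any 1 cell left out, and dotted lines stand at -2 and 2. Bambi lies above 2 over its whole bar in the comparisons of Ibsp-high cells, Fst lies below -2 over its whole bar in all 3 comparisons against the rest, and Bmp3 lies above 2 in the comparisons of Ibsp-high cells without being counted.

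A wider list of 70 other pathway genes was read in the same way, of which 46 entered. In Ibsp-high cells against the rest, 7 of the 46 were higher (15.2%, against 5.62% of all genes entered) and 1 was lower (2.17%, against 3.35%), with a median difference of 0.05 against 0.09 for all genes. In Otos-high cells against the rest, 2 were higher (4.35%, against 5.21%) and 4 lower (8.70%, against 2.82%), with a median of -0.86 against -0.05. In C1qb-high cells against the rest, 5 were higher (10.9%, against 13.3%) and 10 lower (21.7%, against 10.1%), with a median of -1.19 against -0.36. Between Ibsp-high and Otos-high cells, 13 were higher (28.3%, against 8.36%) and 3 lower (6.52%, against 7.43%), with a median of 1.17 against 0.13.

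Of the other BMP ligands, Bmp8a was detected in 9 of 12 Ibsp-high cells, 0 of 9 Otos-high cells, 0 of 4 C1qb-high cells and 1 of 21 cells of the rest. Its mean log2(CPM + 1) was higher by 5.41 in Ibsp-high cells than in the rest. Its relative Bmp8b was detected in 9 of 12 Ibsp-high cells and 6 of 21 cells of the rest, with a difference of 2.49. Bmp5 was detected in 6 of 9 Otos-high cells and 8 of 21 cells of the rest, with a difference of 2.38. The SD over cells of Bmp5 was larger than this, 3.79 in Otos-high cells and 3.78 in the rest. Gdf10, which encodes a relative of Bmp3, was found in 0 of 9 Otos-high cells and 12 of 21 cells of the rest (-4.16), and in 6 of 12 Ibsp-high cells. Bmp2, named here after its values were seen, was detected in 5 of 12 Ibsp-high cells and in 1 of the 34 other cells.

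Of the 11 receptor genes listed, Bmpr1a, Tgfbr2 and Eng were detected in 37, 33 and 29 of the 46 cells, and the other 8 in between 2 and 15 cells. Bmpr1a, a type I receptor for BMPs, was detected in 11 of 12 Ibsp-high cells, 7 of 9 Otos-high cells, 0 of 4 C1qb-high cells and 19 of 21 cells of the rest. Tgfbr2, the type II receptor for TGF-beta, was detected in 7, 8, 2 and 16 cells of the same classes, and both genes were named after their values were seen. Bmpr2, the type II receptor for BMPs, was detected in 7 of 12 Ibsp-high cells and 4 of 21 cells of the rest, with a difference of 2.37 on the log2(CPM + 1) scale. The SD over cells of Bmpr2 was larger than this, 3.59 in Ibsp-high cells and 2.82 in the rest. Eng, which encodes the co-receptor endoglin, was detected in 4 of 12 Ibsp-high cells and 18 of 21 cells of the rest, a difference of -3.76.

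Outside the cell, Bmper, which encodes a BMP-binding regulator, was higher in Ibsp-high cells than in the rest by 3.91 (8 of 12 against 5 of 21 cells). Nbl1, which encodes a BMP antagonist of the DAN family, was higher in Otos-high cells than in the rest by 2.51 (9 of 9 against 18 of 21 cells). Thbs1, whose product thrombospondin can activate latent TGF-beta, and Ltbp1, whose product binds latent TGF-beta, were higher in Ibsp-high cells than in the rest by 3.59 and 2.31. Within the cell, Smad1, a Smad of the BMP branch, was higher in Ibsp-high cells than in the rest by 2.54 (8 of 12 against 8 of 21 cells). It was also higher in C1qb-high cells, as given below. Ski, a repressor of Smads, was lower in Otos-high cells than in the rest by -2.25, and Ctgf, a target of TGF-beta, by -2.50. All of these are differences of mean log2(CPM + 1). The SD over cells was larger than the difference in both classes for Smad1 (3.58 and 3.23), Ltbp1 (3.79 and 2.85) and Ctgf (3.03 and 3.98, the rest second). With a pseudocount of 10, 3 genes of the wider list were higher in Ibsp-high cells than in the rest, against 7 with a pseudocount of 1.

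In the C1qb-high cells, genes of the wider list are named after their values were seen. The antagonist genes Fstl1, Nbl1 and Htra1 were detected in 0 of 4 C1qb-high cells, against 21, 18 and 18 of 21 cells of the rest. The type I TGF-beta receptor gene Tgfbr1 was detected in 3 of 4 C1qb-high cells and 5 of 21 cells of the rest, with a difference of 5.51 on the log2(CPM + 1) scale. Of the 4 target genes that entered, 1 was higher and 2 were lower in C1qb-high cells. Tgfbi, a gene induced by TGF-beta, was detected in 4 of 4 C1qb-high cells and 6 of 21 cells of the rest (4.01). Its highest value was 5400 CPM in the rest, against 238 CPM in C1qb-high cells. The SD of Tgfbi was 4.16 over the rest, larger than the difference, and 1.21 over the C1qb-high cells. Ctgf was detected in 0 of 4 C1qb-high cells and 16 of 21 cells of the rest (-6.15), and Tsc22d1, a gene induced by TGF-beta, in 2 of 4 and 21 of 21 (-4.57). Skil and Tgif1, whose products repress Smad targets, differed by 3.78 and 3.74. Each was detected in 3 of 4 C1qb-high cells, against 8 and 7 of 21 cells of the rest. Their SDs over the C1qb-high cells, 4.20 and 4.08, were larger than these differences, and those over the rest, 3.19 and 3.17, were smaller. Smad1 was higher in C1qb-high cells than in the rest by 2.60 (3 of 4 against 8 of 21 cells), with SDs of 3.62 and 3.23. Atoh8, a BMP target, was detected in 8 cells, all of the rest.

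**Figure D5:**
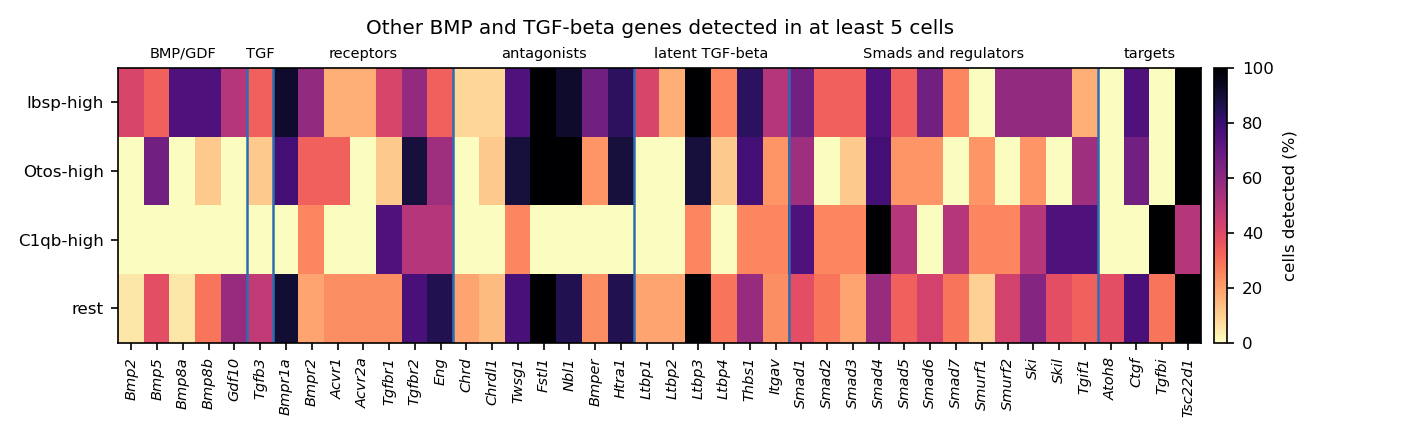
Share of cells in which each gene of the wider list was detected, for genes detected in at least 5 cells (columns, by role), in each class (rows; 12, 9, 4 and 21 cells); dark is 100%. The C1qb-high row is pale over the BMP ligands and most antagonists and dark at Smad4 and Tgfbi, and Bmp8a is dark in the Ibsp-high row alone.

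Several of the 10 genes share sequence with annotated neighbours, and whether the counting used strand was not given in the sources used here. Exons of Bmp4 overlap Gm15217 over 89 bases on the other strand, those of Tgfb2 overlap the antisense gene Gm29491 over 124 bases, those of Fst overlap the antisense gene Gm47040 over 115 bases, and those of Tgfbr3 overlap Gm43422 over 297 bases. Reads of such stretches cannot be told apart. By the annotation, Fst lies on chromosome 13 (114452262 to 114458989) and Tgfbr3 and Bmp3 on chromosome 5 (107106567 to 107289629 and 98854415 to 98884053). Tgfb2 lies on chromosome 1 (186622787 to 186709697), Id1 on chromosome 2 (152736251 to 152737410) and Id3 on chromosome 4 (136143822 to 136145392), in GRCm38 coordinates.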

How the data were processed

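Per the labels' protocols, single fluorescent cells were made into libraries with the SMART-Seq v4 Ultra Low Input RNA and ThruPLEX DNA-Seq kits. Per the submitters' processing notes, the tools were bcl2fastq 2 and STAR 2.7.3a and the builds GRCm38 and mm10. Which program counted reads, with which annotation and strand setting, was not given in the sources used here. Values are CPM as deposited by the authors, per the file headers. Dividing by the smallest step of a cell turned 100% of its nonzero values into whole reads, within 0.01 read. A count test on these reads was not possible, because the cells are 1 sample and there is no second one. Listed genes made up 86.4% to 93.5% of 1000000 CPM per cell.

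The 10 genes, the wider list, the markers and the class limits were chosen with earlier results of these data known. Named from the wider list are, per role, up to 4 genes with the largest difference in Ibsp-high or Otos-high cells against the rest among those counted. For each of the 10 genes detected in at least 10 cells, up to 3 genes with a rho of at least 0.6 are named. Differences are of mean log2(CPM + 1), with a pseudocount of 1, which understates differences of low genes. Exon lengths, strands and overlaps come from GENCODE (vM21), and positions and promoters from RefSeq. The scripts were tested on simulated data and used Python 3.11.15, numpy 2.4.6, pandas 2.3.3, scipy 1.17.1 and matplotlib 3.10.9. The alternatives were other pseudocounts, no filter on low values, other scalings, reads thinned to 2522853 per cell, other class limits, medians, and leaving out each cell. Without molecular identifiers, reads do not count independent molecules.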

Additional observations from a re-analysis of the deposited data

How the results depend on the processing

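Of the 10 genes, none that was counted as higher or lower reversed its direction under any alternative run; for the other genes only counts were computed. With a pseudocount of 0.1 in place of 1, the genes counted in Ibsp-high cells against the rest were 1193 higher (643 with 1). In Otos-high cells against the rest they were 1025 higher and 536 lower (596 and 323), and in Ibsp-high against Otos-high cells 1466 higher (957). With a pseudocount of 10 the counts of higher and lower genes were 158 and 137 (643 and 383) for Ibsp-high cells against the rest, 143 and 94 for Otos-high cells against the rest, 570 and 554 (1523 and 1161) for C1qb-high cells against the rest, and 297 and 335 (957 and 850) for Ibsp-high against Otos-high cells. Of the wider list, 3 were then higher in Ibsp-high cells (7 before), 1 higher and 2 lower in Otos-high cells (2 and 4), and 7 higher and 1 lower between these classes (13 and 3). With medians over cells in place of means, the counts were 1468 and 805 for Ibsp-high cells, 1349 and 699 for Otos-high cells, and 1436 and 1419 between them. Of the wider list, 11 were higher and 2 lower in Ibsp-high cells, and 4 higher and 2 lower in Otos-high cells. Class limits 5 times higher left 1 gene of the wider list higher in Otos-high cells. Leaving out the 5 cells of the rest with at least 3 osteoblast markers, chosen after seeing the data, left 2 of the wider list lower in Ibsp-high cells. With 1 cell left out at a time, between 1 and 3 of the wider list were lower in Ibsp-high cells (3 without cell 10) and between 1 and 5 higher in Otos-high cells (1 without cell 31, 5 without cell 25). Between these classes 8 to 13 were higher (8 without cell 4). The causes were not tested.

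Of the 10 genes, those whose count ended with a pseudocount of 10 are given with each comparison above. Class limits 5 times lower also ended the count of Id1 in Ibsp-high cells (-1.98) and of Tgfb1 in C1qb-high cells (1.62), and medians over cells that of Id1 in Otos-high cells (1.73), all against the rest. Bambi kept a difference of at least 2 in Ibsp-high cells against the rest under every alternative, between 2.46 and 3.29, and Fst between -5.18 and -2.71. With medians over cells, Bmp3 differed by 0.31 in Ibsp-high cells and Tgfb2 by 5.08 in Otos-high cells, both against the rest. At 100 CPM as the limit of detection, Tgfb1 was detected in 1 of the 46 cells. No paired analysis was possible because the cells form 1 labelled group. At the lowest depth, 2522853 reads, 1 CPM is a few reads, so values near 1 CPM say little.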
